A study of Rattus norvegicus with 4 samples.

Results

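The enzymes of glycolysis and of lactate production were read by 16 probe sets on a rat testis array series, covering 8 genes of the 4736 that could be named. They were chosen by symbol, as all probe sets annotated with a single one of 10 enzyme genes, with the manufacturer's control probe sets left out. Hk1, Hk2, Aldoa, Pgk1, Pgam1, Pgam2, Eno1 and Ldhb had such probe sets. Gapdh and Ldha did not: outside the controls, the 2 probe sets that list them also list related genes or a pseudogene, so both enzymes were not analysed here. All samples were whole testis of rats put on a diet without vitamin A at 20 days of age and kept on it for 9 weeks. The groups were the deficient testis at 0 h (VAD) and the deficient testis 4, 8 and 24 h after retinol, the alcohol form of the vitamin, with 1 deposited sample per group, called an array here. Every group shares the deficient diet, and no testis of a rat fed vitamin A throughout is among the samples. How many animals stand behind an array was not stated. The deposited values are linear ratios per probe set, so the abundance of a transcript is not known, one gene's level cannot be set against another's, and the tissue label cannot be checked against marker levels.

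Glycolysis splits glucose into pyruvate in the cytosol. Hexokinases trap glucose as its phosphate, aldolase splits the 6-carbon sugar into triose phosphates, and phosphoglycerate kinase, phosphoglycerate mutase and enolase carry the trioses towards pyruvate with a yield of ATP. Lactate dehydrogenase interconverts pyruvate and lactate. In the testis, Sertoli cells take up glucose and export lactate, which spermatocytes and spermatids use as fuel, and male germ cells also make their own forms of several of these enzymes.

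Pgk1, Eno1, Ldhb and Hk2 had lower ratios in every probe set on every retinol array than on the VAD array, while Aldoa and Pgam2, with 1 probe set each, had higher ones. Promoter windows of Ldhb, Eno1 and Aldoa are shown as examples of both directions. They come from RefSeq on build GRCr8 and run from 250 bases before to 50 after an annotated start. Of the 8 genes, 7 had at least 1 window in that table and Pgk1 was not matched. Capitals mark ACGTG and GCGTG on either strand, the core letters of the hypoxia response element bound by HIF proteins, which are known activators of glycolytic genes. Ldhb lies at chr4:177177359-177177658 on the minus strand, Eno1 at chr5:166002617-166002916 and, for another annotated start, chr5:166003111-166003410, both on the plus strand, and the Aldoa window that holds the letters at chr1:190836728-190837027 on the minus strand.
Ldhb: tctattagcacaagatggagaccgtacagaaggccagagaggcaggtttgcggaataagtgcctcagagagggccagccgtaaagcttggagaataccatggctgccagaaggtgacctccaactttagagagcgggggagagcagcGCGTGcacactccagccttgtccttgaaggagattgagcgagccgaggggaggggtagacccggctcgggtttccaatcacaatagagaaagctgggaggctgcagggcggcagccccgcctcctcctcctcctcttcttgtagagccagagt
Eno1, upstream start: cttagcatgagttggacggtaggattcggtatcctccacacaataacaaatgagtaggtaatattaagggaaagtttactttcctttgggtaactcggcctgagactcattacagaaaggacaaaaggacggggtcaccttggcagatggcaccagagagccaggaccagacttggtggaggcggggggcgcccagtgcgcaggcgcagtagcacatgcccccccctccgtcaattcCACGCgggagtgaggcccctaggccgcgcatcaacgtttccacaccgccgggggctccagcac
Eno1, downstream start: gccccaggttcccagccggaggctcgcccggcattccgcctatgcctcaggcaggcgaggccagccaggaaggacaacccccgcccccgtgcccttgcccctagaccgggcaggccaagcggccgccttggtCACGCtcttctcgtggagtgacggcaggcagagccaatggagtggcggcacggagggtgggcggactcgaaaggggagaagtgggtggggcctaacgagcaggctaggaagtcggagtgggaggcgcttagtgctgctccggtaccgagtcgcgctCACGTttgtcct
Aldoa: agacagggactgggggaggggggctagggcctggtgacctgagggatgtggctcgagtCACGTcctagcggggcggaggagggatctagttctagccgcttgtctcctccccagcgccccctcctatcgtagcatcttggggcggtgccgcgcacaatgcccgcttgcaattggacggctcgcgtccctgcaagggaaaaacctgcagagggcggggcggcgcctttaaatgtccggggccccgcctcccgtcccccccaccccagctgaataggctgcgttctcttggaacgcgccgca

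The core letters were in 6 of the 11 windows of the measured enzyme genes, and in 41.6% of all 33469 windows of that length in the table. They stood in windows of Ldhb and Eno1, which were lower after retinol, of Aldoa, which was higher, and of Hk1 and Pgam1, which lay closer to VAD. No match was found in the windows of Hk2 and Pgam2 or in the other windows of Aldoa and Hk1. The 41.6% is not matched for base composition. The windows of these genes with the letters had 57.3% to 69.3% G and C, and those without had 50.7% to 60.7%. The median of all windows was 51.7%. A match is a description of these letters and not a site.

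Phosphoglycerate kinase 1, encoded by Pgk1, makes the first ATP of the pathway, and had the largest shift below VAD among the 8 genes. Of its 3 probe sets, the first read ratios of 1.21 in VAD and 0.881, 0.55 and 0.769 at 4, 8 and 24 h. The second, from the same database sequence, read 0.831 in VAD and then 0.74, 0.646 and 0.489. The third, from another sequence, read 1.11 in VAD and then 0.714, 0.666 and 0.411. All 3 were below their VAD value on each retinol array, and 2 of them were lowest at 24 h. As the mean over probe sets, the log2 changes against VAD at the 3 times were -0.42, -0.74 and -0.95, the last being 1.93-fold lower than VAD. The spread to set beside it comes from 967 genes that have probe sets from 2 different sequences: the SD of 1 probe set's change was 0.43, 0.52 and 0.58 at the 3 times, which for a mean over 3 probe sets is 0.25, 0.30 and 0.33. It covers disagreement between probes on these arrays, with the spread between animals left out. The value for a mean treats probe sets as independent, which those from one sequence are not. It may therefore be too small for genes such as Pgk1, Eno1 and Ldhb. At 24 h the change was 2.83 times that noise, and 3.34% of all genes were lower than Pgk1. With 1 array per group there was no test of any difference described here, and no p-value was computed.

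**Figure D1:**
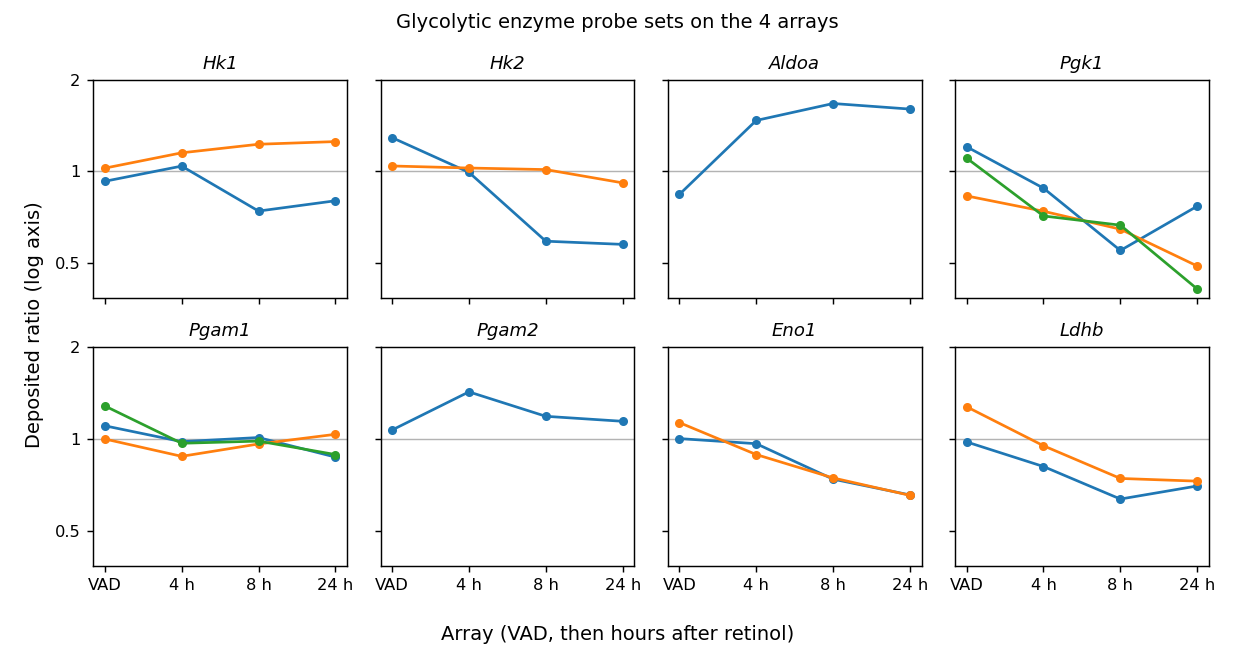
Deposited ratio (log axis) of each probe set, 1 line per probe set, on the VAD array and on the arrays 4, 8 and 24 h after retinol, 1 panel per gene in pathway order. The lines of Pgk1, Eno1 and Ldhb run below their VAD points on all retinol arrays, the single Aldoa line runs above its VAD point (0.84 in VAD, 1.67 at 8 h), and the 2 lines of Hk1 part at 8 h.

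Enolase 1, encoded by Eno1, forms phosphoenolpyruvate. Its first probe set read 1.003 in VAD and 0.965, 0.738 and 0.655 at 4, 8 and 24 h. Its partner from the same sequence read 1.13 in VAD and then 0.889, 0.745 and 0.653. Both had the order VAD, 4 h, 8 h, 24 h from high to low. The mean log2 change was -0.20 at 4 h, within the noise of 0.30, then -0.52 (noise 0.37) at 8 h and -0.70 (noise 0.41) at 24 h, or 1.63-fold lower than VAD. Counted as 1 probe set, since both share a sequence, the noise was 0.52 at 8 h, the size of the change, and 0.58 at 24 h. The probe sets were 0.61 and 0.79 below VAD at 24 h on that scale, so they differed less from each other than from VAD.

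Lactate dehydrogenase B, encoded by Ldhb, is the subunit that is known for its preference for lactate as substrate. One probe set read 0.978 in VAD and 0.812, 0.635 and 0.701 at 4, 8 and 24 h. The other, from the same sequence, read 1.28 in VAD and then 0.95, 0.742 and 0.727. Both were below VAD on every retinol array, and most of the shift was there by 8 h. The mean log2 changes at these times were -0.35, -0.70 and -0.65, against noise of 0.30, 0.37 and 0.41. Counted as 1 probe set, the noise was 0.43, 0.52 and 0.58, larger than the change at 4 h. The 8 h value is 1.63-fold lower than VAD, and 7.26% of all genes were lower.

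Aldolase A, encoded by Aldoa, is the muscle and general form of the enzyme. Its only probe set read 0.84 in VAD and 1.47, 1.67 and 1.60 at 4, 8 and 24 h. All 3 retinol arrays were above VAD and close to each other. The log2 changes were 0.81, 0.99 and 0.93 in that order of time, with noise of 0.43, 0.52 and 0.58 for a single probe set. The 8 h value is 1.99-fold, just short of 2-fold, and 97.1% of all genes were lower. This probe set carries a suffix (_s) that marks probes shared with other sequences, no second probe set checks it, and its VAD ratio was below 1, so that against 1 in place of VAD the changes were 0.56, 0.74 and 0.68.

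Hexokinase 2, encoded by Hk2, is the form most regulated by insulin. Its probe sets disagreed. The first, suffix-marked, read 1.29 in VAD and 0.993, 0.59 and 0.576 at 4, 8 and 24 h, and the second read 1.04 in VAD and then 1.03, 1.01 and 0.917. At 24 h the first was 1.16 below VAD on the log2 scale and the second 0.18 below. Both had the order VAD, 4 h, 8 h, 24 h from high to low. Their mean was -0.20, -0.58 and -0.67 at the 3 times, but it rests on the first probe set: without suffix-marked probe sets it was -0.02, -0.04 and -0.18.

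Hexokinase 1, encoded by Hk1, is the widespread form. One probe set read 0.928 in VAD and 1.04, 0.741 and 0.801 at 4, 8 and 24 h. The other, from another sequence, read 1.03 in VAD and then 1.15, 1.23 and 1.25. They were together at 4 h, both 0.17 higher than VAD on the log2 scale, and on opposite sides of VAD at 8 h (-0.32 and 0.26) and 24 h (-0.21 and 0.29). The mean change was 0.17, -0.03 and 0.04, in each case smaller than its noise of 0.30, 0.37 and 0.41.

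The phosphoglycerate mutase genes were, with Hk1, the nearest to VAD at 8 and 24 h. Pgam1, the widespread form, had 3 probe sets, with VAD ratios of 1 to 1.28 and 24 h ratios of 0.872 to 1.04. Its mean log2 changes over time were -0.26, -0.19 and -0.27, against noise of 0.25, 0.30 and 0.33, and 1 of the 3 probe sets was above VAD at 24 h (0.05). Pgam2, the muscle form, had 1 probe set, which read 1.07 in VAD and 1.43, 1.19 and 1.14 at 4, 8 and 24 h. Its change of 0.42 at 4 h was about the size of its noise (0.43), and 0.15 and 0.10 at 8 and 24 h were well inside it.

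Taken over the list, none of the 8 genes was 2-fold from VAD at any time. Among all genes, the share above VAD by 2-fold or more was 1.41%, 2.83% and 3.27% in order of time, and the share below it by that much was 1.25%, 1.88% and 2.64%. A count of 0 among 8 genes is near these shares. At 1.5-fold, 4 of the 8 genes (Hk2, Pgk1, Eno1 and Ldhb) were lower at 24 h, where 14.1% of all genes were, and 1 (Aldoa) was higher, where 8.99% were. The count of 4 depends on the processing. Without suffix-marked probe sets Hk2 (-0.18) and Ldhb (-0.48) fell short, while Pgk1 (-1.04) and Eno1 (-0.61) passed. Against 1 in place of VAD, Hk2 (-0.46) and Ldhb (-0.49) also fell short, and Pgk1 (-0.90) and Eno1 (-0.61) passed. With the spike-in scaling described below, all 4 fell short, with Pgk1 at -0.33 and Eno1 at -0.08. At 8 h, 2 of the 8 (Pgk1 and Ldhb) were at least 1.5-fold lower, against 12.3% of all genes, with Hk2 just short at 1.4995-fold, and 1 was higher, against 8.53%. At 4 h, 0 were lower by that much and 1 was higher, against 6.63% and 6.17% of all genes. These genes were chosen by symbol but with earlier results of the same data known, so the shares are read as a description.

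The median change of the 8 genes lay further below VAD with time, at -0.20, -0.36 and -0.46 for 4, 8 and 24 h. The median of all 4736 genes was -0.09, -0.12 and -0.12, so relative to it the list lay lower by a smaller amount. That distance rests on a part of the probe sets. With those whose VAD ratio was within 10% of 1, which leaves 6 genes without Aldoa and Pgk1, the list was at -0.039, -0.047 and -0.073, above the -0.11, -0.13 and -0.14 of all genes. Without suffix-marked probe sets, which leaves 7 genes without Aldoa, it was at -0.056, -0.054 and -0.18, against -0.087, -0.12 and -0.12 for all genes, so it was below them at 24 h and not before. By any amount, 5 of 8 genes lay below VAD after 4 h, 6 after 8 h and 5 after 24 h, close to the 61.1%, 61.5% and 59.9% of all genes. The single probe sets gave 11 of 16 below VAD on all 3 retinol arrays, where 44.4% of all probe sets were, and 3 of 16 above it on all 3, where 26.3% were. The range over genes was wide at each time, from -0.95 (Pgk1) to 0.93 (Aldoa) at 24 h.

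**Figure D2:**
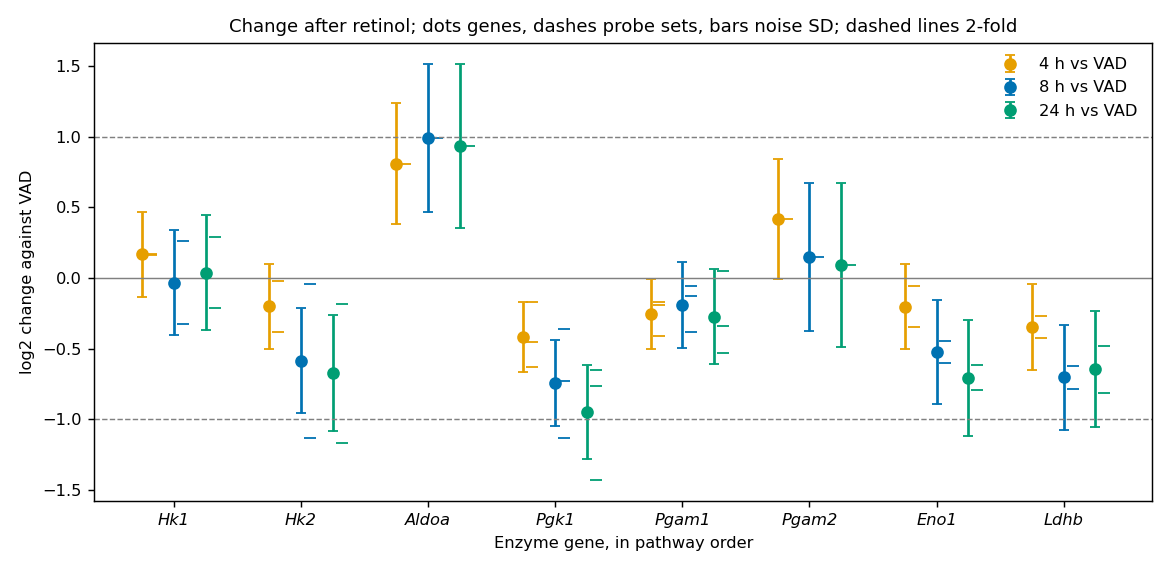
Log2 change against VAD at 4, 8 and 24 h for each enzyme gene in pathway order. Dots are means over probe sets, dashes single probe sets, and bars 1 SD of probe set noise for the gene on either side. The bars treat probe sets as independent, which the Eno1 and Ldhb pairs from one sequence are not. The bars of Pgk1, Hk2, Eno1 and Ldhb lie below 0 at 8 and 24 h and those of Aldoa above 0 at each time. No dot reaches the dashed 2-fold lines.

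**Figure D3:**
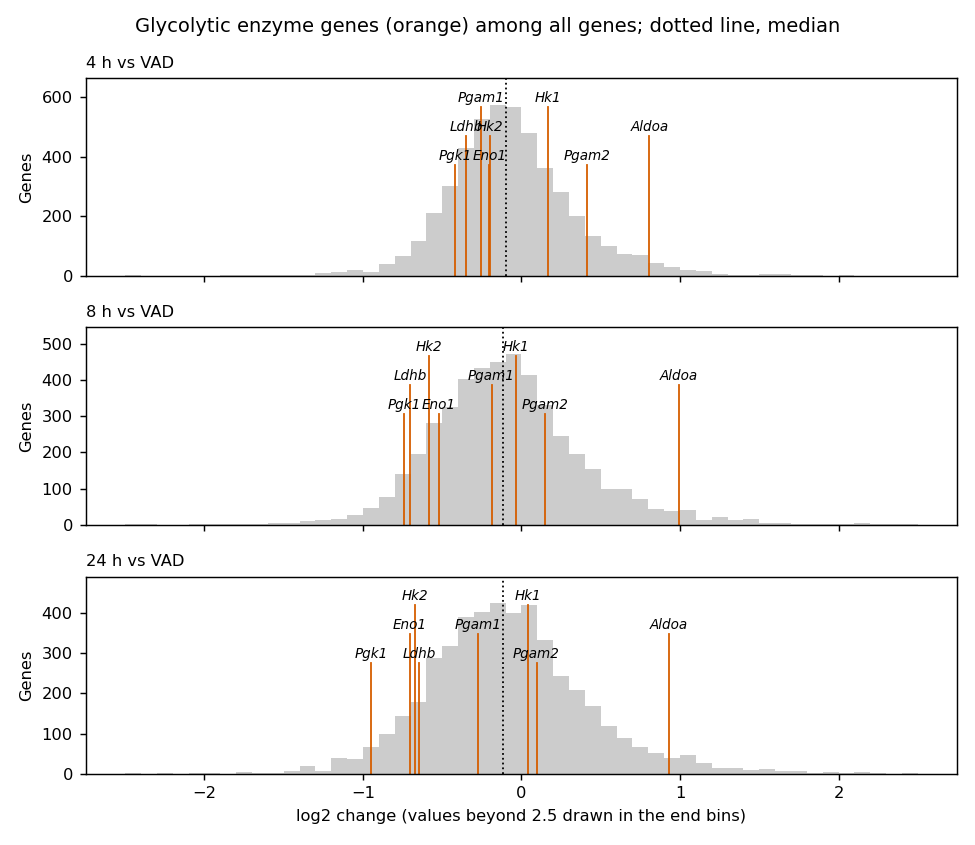
Distribution of log2 changes over all 4736 genes at 4, 8 and 24 h against VAD (gray bars, number of genes; dotted line, median of all genes), with the 8 enzyme genes as orange lines. Pgk1, Eno1, Ldhb and Hk2 stand together in the lower flank at 8 and 24 h, and Aldoa is the highest of the 8 at all 3 times.

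Between the retinol arrays the widest changes of single genes were smaller than against VAD. The list median was not smaller in each case. For 8 h and for 24 h against 4 h it was larger in size than the -0.20 of 4 h against VAD. From the comparison of 8 h with 4 h, 6 of the 8 genes were lower at 8 h, where 55.7% of all genes were, and the list median was -0.29 against -0.03 for all genes. The means of Hk2 (-0.38), Ldhb (-0.36), Pgk1 (-0.33) and Eno1 (-0.32) were within a narrow span there. Noise was 0.24 for genes with 2 probe sets, 0.19 for Pgk1 and 0.33 for 1 probe set. Their single probe sets spread more widely. Those of Hk2 were at -0.75 and -0.02, those of Pgk1 at -0.68, -0.20 and -0.10, and those of Eno1 at -0.39 and -0.25. Both Ldhb probe sets were lower, by 0.35 and 0.36 on the log2 scale, so this gene had nearly the same value from each. In 24 h against 8 h, 6 of 8 were lower, against 49.8% of all genes, but the median was only -0.07 against 0.00, and each of the 8 genes except Pgk1 (-0.20, noise 0.19) was inside its noise. The Pgk1 probe sets went opposite ways there (0.48, -0.40 and -0.70), and the one whose ratio averaged highest over the arrays gave the 0.48. In 24 h against 4 h, 7 of 8 were lower, against 53.8% of all genes, and 6 of 8 lay below the median of all genes. Hk1 (-0.13, noise 0.28), Pgam1 (-0.02, noise 0.23) and Pgam2 (-0.32, noise 0.39) were lower by less than their noise. The list median there was -0.31 against -0.03 for all genes, from -0.53 for Pgk1 to 0.12 for Aldoa. None was 2-fold apart in any of these comparisons, as were 0.718% (higher) and 0.929% (lower) of all genes for 8 h against 4 h, 0.507% and 0.655% for 24 h against 8 h, and 1.06% and 1.41% for 24 h against 4 h. The comparisons share arrays with one another and with those against VAD, so they are not separate evidence.

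The direction of small changes moves with the scaling. The 9 bacterial spike-in probe sets were all lower than in VAD at each time, with median log2 changes of -0.55, -0.58 and -0.71, and scaling the arrays on them would move every gene up by about 0.55, 0.50 and 0.62. Pgk1 would then be at 0.13, -0.24 and -0.33, Eno1 at 0.35, -0.02 and -0.08, Ldhb at 0.20, -0.20 and -0.02, and Aldoa at 1.36, 1.49 and 1.55. The distance between Aldoa and these 3 genes is the same under either scaling, whereas their lower values hold for the ratios as deposited. The VAD ratio was above 1 in several of these probe sets, and against 1 in place of VAD Pgk1 was at -0.37, -0.69 and -0.90, Eno1 at -0.11, -0.43 and -0.61, and Ldhb at -0.19, -0.54 and -0.49, so their direction was the same.

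The manufacturer's control probe sets along the hexokinase and GAPDH transcripts, which the annotation names Hk1 and Gapdh, were not counted above but read the same enzymes. The hexokinase controls were above VAD throughout: the 5' probe set had 0.715 in VAD and 1.29, 1.80 and 1.83 at 4, 8 and 24 h, the middle one 0.92 and then 2.07, 1.53 and 1.47, and the 3' one 0.982 and then 1.34, 1.15 and 1.44. The 2 Hk1 probe sets of the list stayed between 0.741 and 1.25, so the controls and the list did not give one value for hexokinase 1. The GAPDH controls differed by position. The 3' probe set was at -0.11, -0.27 and -0.33 against VAD, in the direction of Pgk1, Eno1 and Ldhb, the middle one at 0.14, 0.03 and 0.03, and the 5' one at 0.57, 0.63 and 0.59. Beta-actin had the same order, with 1.11, 1.29 and 1.52 at the 5' end and 0.06, 0.01 and 0.22 at the 3' end. Where the probe sets of the 8 genes lie along their transcripts is not known here, and the part of position in their changes was not tested.

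**Figure D4:**
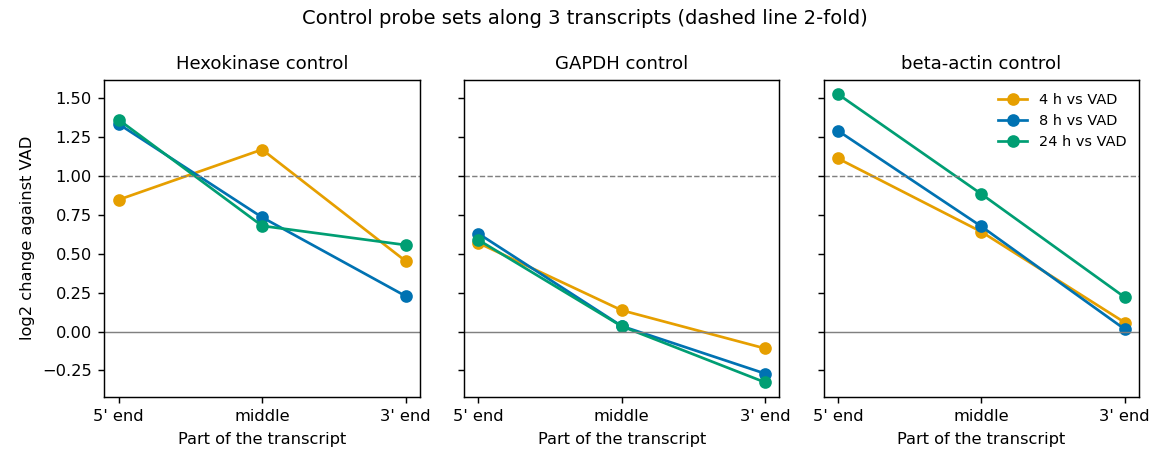
Log2 change against VAD at 4, 8 and 24 h of the control probe sets at the 5' end, the middle and the 3' end of the hexokinase, GAPDH and beta-actin transcripts. GAPDH and beta-actin are highest at the 5' end and lowest at the 3' end at all 3 times, and the hexokinase middle probe set is above both ends at 4 h (1.17).

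Among the other genes of glycolysis, 15 of 24 listed were measured, and their median stayed near 0 (0.03, 0.01 and -0.06 at 4, 8 and 24 h). The clearest was Pfkfb3, whose enzyme makes fructose 2,6-bisphosphate, the activator of phosphofructokinase. Its 2 probe sets come from different sequences and both were at least 2-fold higher on each retinol array: the first read 1.49 in VAD and 2.99, 4.52 and 3.06, and the second 1.04 in VAD and 2.18, 2.29 and 2.22. The gene's log2 change was 1.03, 1.37 and 1.06, with noise of 0.30, 0.37 and 0.41. It was the 1 gene of the 15 at least 2-fold higher at each time. Eno3, the muscle enolase, was the 1 at least 2-fold lower at 8 h, with ratios of 0.942 in VAD and 0.625, 0.446 and 0.511 from 1 probe set.

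The phosphofructokinase subunits, which sit between hexokinase and aldolase, went different ways. Pfkl, the liver form, was at 0.33, 0.75 and 0.74 from 1 probe set, and Pfkp, the platelet form, at -0.17, -0.46 and -0.55 from 2. Pfkm, the muscle form, was at 0.12, 0.15 and 0.29, within its noise. Of the other bifunctional enzyme genes, Pfkfb1 was at -0.37, -0.36 and -0.37, Pfkfb2 at 0.02, 0.01 and -0.25 and Pfkfb4 at 0.03, -0.08 and -0.23. Another 3 genes were picked after values were seen, because they complete the end of the pathway. Pkm, the pyruvate kinase that follows enolase, was at -0.22, -0.55 and -0.58 from 1 probe set, values near those of Eno1. Pklr, the liver and red cell pyruvate kinase, was at -0.27, 0.35 and -0.06 from 1 probe set, so the pyruvate kinase genes did not move alike. Ldhc, the germ cell lactate dehydrogenase, had ratios of 1.88 in VAD and 2.87, 1.32 and 1.16, so it was above VAD at 4 h (0.61) and below it later (-0.51 and -0.70), a course that Ldhb did not have.

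**Figure D5:**
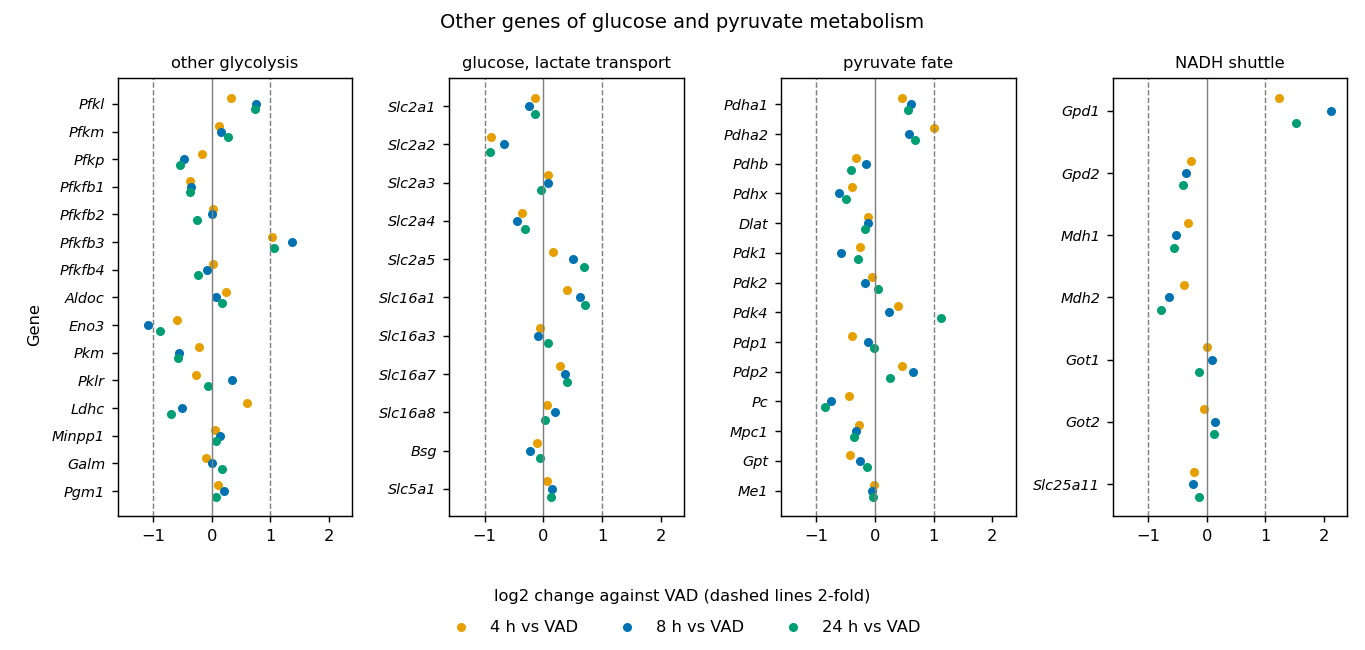
Log2 change against VAD at 4, 8 and 24 h (1 dot per gene and time) for other genes of glycolysis, of glucose and lactate transport, of pyruvate use and of the NADH shuttles; dashed lines mark 2-fold. Pfkfb3 and Gpd1 lie beyond the upper line at all 3 times, Eno3 beyond the lower one at 8 h.

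Genes on either side of the pathway mostly stayed within 2-fold, as did most of all genes. At each time, at most 3.27% of all genes were 2-fold higher than VAD and at most 2.64% were 2-fold lower. Of 11 transport genes (12 listed) 0 passed 2-fold, a count near these shares, around medians of 0.06, 0.08 and 0.03. The glucose transporter gene Slc2a1 was at -0.14, -0.25 and -0.15, Slc2a3 at 0.08, 0.08 and -0.04, Slc2a2 at -0.89, -0.67 and -0.91, Slc2a4 at -0.36, -0.45 and -0.31, and the fructose transporter gene Slc2a5 at 0.17, 0.50 and 0.69. The lactate carrier gene Slc16a1 (MCT1) was at 0.40, 0.63 and 0.70, from probe sets at 0.30 and 1.11 at 24 h. Of 14 measured genes of pyruvate use (17 listed; medians -0.19, -0.14 and -0.09), Pdha2 was 2-fold higher at 4 h (1.01) and Pdk4, a kinase that switches pyruvate dehydrogenase off, at 24 h (1.12). The pyruvate dehydrogenase gene Pdha1 had a mean of 0.46, 0.61 and 0.55 from probe sets that disagreed, at 1.25 and -0.14 at 24 h. Of 7 NADH shuttle genes (9 listed; medians -0.21, -0.24 and -0.14), Gpd1, the cytosolic glycerol phosphate dehydrogenase that draws on the triose phosphate made by aldolase, was higher at each time by 1.24, 2.12 and 1.52, with ratios of 0.945 in VAD and 2.23, 4.12 and 2.71 from 1 probe set. The malate dehydrogenase genes Mdh1 and Mdh2 were at -0.56 and -0.78 at 24 h.

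The remaining lists held few 2-fold changes against VAD, as did all genes together (at most 3.27% higher and 2.64% lower at any time). Such small counts do not set these lists apart. The 8 measured genes of gluconeogenesis and glycogen (13 listed) had medians of -0.05, -0.26 and 0.16 and 0 past 2-fold against VAD. The fructose bisphosphatase gene Fbp1 was at 0.58, -0.48 and -0.79, unlike most of this list at 24 h. There 2 of the 8 were below VAD, where 59.9% of all genes were. Pck1 was at -0.14, -0.15 and 0.08, Fbp2 at -0.56, -0.57 and 0.24, and Gys2 at -0.72, -0.55 and 0.49. Of the pentose phosphate genes 2 of 8 were measured, Tkt at 0.19, 0.13 and 0.25 and Taldo1 at -0.64, -0.92 and -0.85. Among 9 measured regulators of glycolysis (12 listed, medians 0.09, 0.15 and 0.15), Prkaa2, a catalytic subunit of AMP-activated kinase, was the 1 past 2-fold. It was at -1.21 at 4 h (noise 0.43) and at -0.39 and -0.55 later, from 1 probe set. Prkaa1, the other catalytic subunit, was at 0.09, 0.75 and 0.50, also from 1 probe set. Hif1a, the oxygen-sensitive HIF subunit, had ratios of 0.695 in VAD and 1.14, 1.20 and 1.24, and its partner Arnt was at 0.38, 0.68 and 0.58. Myc was at -0.60, -0.84 and -0.50.

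In whole testis, fewer cells of a type and less RNA per cell cannot be told apart. The 9 measured spermatid markers (11 listed) had a median change of 0.74, -0.37 and -0.49, the 8 spermatocyte markers (9 listed) of 0.61, -0.18 and -0.22, and the 9 Sertoli markers (13 listed) of 0.09, -0.01 and -0.12. The Leydig list (4 of 6 measured) was at 0.12, -0.05 and -1.11, peritubular myoid (5 of 5) at -0.25, -0.39 and -0.43, macrophage (3 of 5) at -0.01, -0.03 and 0.27, endothelial (3 of 5) at -0.22, 0.43 and 0.47, erythrocyte (4 of 8) at -0.20, 0.27 and 0.25, and skeletal muscle (9 of 12) at -0.18, -0.16 and -0.13. The medians of the germ cell lists had the course of Ldhc, which is in the spermatocyte list. They were above VAD at 4 h, where Pgk1, Eno1 and Ldhb were below it, Eno1 by less than its noise. At 8 and 24 h these medians and the 3 genes were all below VAD, as was the median of all genes. Single markers did not all follow. Of the 9 spermatid markers 2 were below VAD at 4 h and 8 at 24 h, and of the 8 spermatocyte markers 0 and 5. Pdha2, for example, stayed above VAD (1.01, 0.58 and 0.68). The Sertoli markers went opposite ways at 24 h. Gja1 (1.02), Wt1 (1.03) and Gata4 (0.72) were above VAD. Below it were 5 of the 9, Inha (-0.50) and Amh (-0.46) among them, as were 59.9% of all genes. In the endothelial list, Kdr was at -1.35 at 24 h, and Pecam1 and Vwf at 0.65 and 0.47. The muscle list was on the same side of VAD as Eno3 and on the other side from Aldoa and Pgam2. Its medians were near those of all genes (-0.09, -0.12 and -0.12), so that side is not particular to muscle. The part of cell makeup in the changes of the 8 genes was not tested.

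By the root mean square difference of log2 ratios over the 4 arrays, the genes nearest to the median course of the 8 enzymes (1.07 in VAD and 0.974, 0.859 and 0.822) were Gtf2b (0.03), Cdk14 (0.03) and Yif1a (0.04). Aldoa had the widest range of the 8, and nearest to it were Ndufs1 (0.08), Ghr (0.08) and Atp1b2 (0.09). Ghr, for example, had 0.87 in VAD and 1.48, 1.59 and 1.76 as the mean of 3 probe sets. With 4 arrays, such a likeness is a description only.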

How the data were processed

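Total testis RNA (10 micrograms per sample, per the labels) was read on an Affymetrix rat array. The authors deposited 1 linear ratio per probe set and array. Per the submitters' processing notes, GCOS and MAS5 were used (versions not given). How ratios were made, and their reference, pooling and scaling, is not stated in the labels or the file. The VAD ratios lay within 10% of 1 for 59.9% of probe sets.

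Of 8799 probe sets, 59 were controls, 7006 carried 1 gene symbol, 308 several and 1426 were unlisted. Symbols were updated through Entrez IDs, which were found in RefSeq (GRCr8) for 6985 of the 7006 probe sets. Log2 ratios were averaged over a gene's probe sets and arrays subtracted, in Python 3.11.15 with pandas 2.3.3. Calls were 2-fold. Noise of 1 probe set is the SD of the difference between 2 probe sets of a gene from different sequences, divided by the square root of 2. It was divided by the square root of the number of probe sets for a gene, although partners from one sequence are not independent. The functions were tested on simulated data. The planned design held no test, as there was 1 sample per group.

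Members and lists were chosen with earlier results of these data known. The rule took all 8 members, list genes past 2-fold against VAD, up to 6 others of each list in written order, and 3 nearest genes. Only part of the list genes is printed. Pkm, Pklr and Ldhc fell outside that rule. Alternatives covered the combination of probe sets, scaling, the VAD reference, probe set filters, a pseudocount of 0.1 and a 1.5-fold threshold.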

Additional observations from a re-analysis of the deposited data

Results flagged for a closer look

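Hk1 was above VAD at 4 h and below it at 8 h, a difference of -0.20 between the changes, and above it again at 24 h, a difference of 0.071. Each group is 1 array and the differences were not tested. They were smaller than the noise of the gene.

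The hexokinase control probe sets, which were left out of the comparisons, passed 2-fold in 3 places: the 5' probe set at 1.33 at 8 h and 1.36 at 24 h, and the middle probe set at 1.17 at 4 h, as log2 changes against VAD.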

How the results depend on the processing

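No paired analysis was possible because each group is 1 array. Among the values of single enzyme genes over the 6 comparisons, the sign changed for 13 of 48 under spike-in scaling, 5 of 48 on keeping a gene's highest-ratio probe set, 3 of 36 with VAD ratios within 10% of 1, 3 of 42 without suffix-marked probe sets, 2 of 48 when centred on all genes, 1 of 24 against 1 in place of VAD, and 0 of 48 with the median over probe sets or the pseudocount of 0.1. Values for gene lists are medians of log2 changes.

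Scaling on the spike-ins put the enzyme medians at 0.35, 0.15 and 0.16 at 4, 8 and 24 h against VAD and at 0.047 for 24 h against 8 h. It moves all genes alike, to medians of 0.45, 0.38 and 0.50 against VAD, and 5, 5 and 5 enzyme genes were below those. It gave 1 gene at least 2-fold higher at each time (1, 1 and 1), and the other glycolysis genes 0.58, 0.51 and 0.56, with 0.048 for 24 h against 8 h. Centring on all genes gave 1 enzyme gene 2-fold higher at 8 h and 1 at 24 h, and other glycolysis medians of 0.12, 0.12 and 0.059. Against 1 in place of VAD, the enzyme medians were -0.038, -0.22 and -0.28, and 3 genes lay below the median of all genes at 4 h.

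Keeping probe sets with a VAD ratio within 10% of 1 left 6 genes, without Aldoa and Pgk1. Medians were then -0.039, -0.047 and -0.073 against VAD and -0.19 for 24 h against 4 h. Genes below the median of all genes numbered 2, 2 and 3 against VAD and 3 for 24 h against 8 h. The other glycolysis genes were at -0.13 at 4 h. Without suffix-marked probe sets 7 genes were left, without Aldoa. Their medians were -0.056, -0.054 and -0.18 against VAD and -0.21 for 24 h against 4 h. There were 3 genes below the median of all genes at 4 h and 3 at 8 h, and 1 gene 2-fold lower at 24 h (Pgk1, -1.04). The other glycolysis genes were at -0.10, -0.16 and -0.24 against VAD and -0.12 for 24 h against 4 h. The list median thus moved with the probe sets kept.

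Taking the probe set whose mean ratio was highest, the enzyme medians were -0.21 for 8 h against VAD, -0.14 for 8 h against 4 h and -0.18 for 24 h against 4 h, with 1 gene 2-fold lower at 8 h (Pgk1, -1.13). The other glycolysis genes were at 0.33, 0.35 and 0.18 against VAD and -0.0079 for 24 h against 8 h. The median over probe sets put 1 gene 2-fold lower at 24 h (Pgk1, -1.18). A 1.5-fold threshold gave 1, 1 and 1 genes higher at 4, 8 and 24 h, and 2 and 4 lower at 8 and 24 h. Of the other results for lists, 183 moved by less than their noise or stayed within 1.5 times their count. Where the other values moved, the cause was not tested beyond the probe sets or arrays that an alternative changes. Intensities and detection calls were not kept, so precision rests on the number of arrays and probe sets.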
